A study of Mus musculus with 111 samples.

Results

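The transfer RNAs that carry aspartate to cytosolic ribosomes appeared in the read-count table as 2 entries, tRNA-Asp-GTC-1 and tRNA-Asp-GTC-2, of 1268 entries in all. The rule names both, as substrates of the enzyme DNMT2 and of queuosine modification and as the leading cytosolic tRNA of the reproductive tract. They were followed through every tissue and diet. After entries that list the same reads had been reduced to 1, the table held 1042 features, of which 154 were cytosolic tRNAs. Small RNA of mice was read by OTTR-seq, which adds both sequencing adapters during reverse transcription, in 111 libraries from 6 tissues: liver and heart, testis, the caput and cauda of the epididymis, and sperm from the cauda. The mice ate 1 of 4 diets for 6 months, and each tissue and diet gave 4 or 5 libraries. The low-protein diet held 10% protein, with sucrose in place of the missing mass, and its control held 18%. The high-fat diet drew 60% of its calories from fat and its own control, here the high-fat control, 7.2%, while a label gives 16% as the fat share that the high-fat diet replaced. No strain, age at sampling or genetic change is named in the labels. Nothing in them says that the libraries of a group are separate animals, and a p-value here reflects only how libraries varied, which may be technical.

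An aspartate tRNA reads the aspartate codons of messenger RNA through its anticodon GUC, written GTC in gene names. Its first anticodon base can be exchanged for queuine, a nutrient made by bacteria, which leaves the modified nucleoside queuosine. The enzyme DNMT2 (TRDMT1) places a methyl group on a cytosine of its anticodon loop. Fragments of aspartate and other tRNAs are abundant in the epididymis and in sperm, where they have been studied as carriers of dietary information from father to offspring.

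RefSeq lists 16 aspartate tRNA genes on GRCm38, each 72 bases long, on 6 chromosomes. Of these, 5 lie in a cluster at chr1:171037029-171102442 that holds 21 tRNA genes, the others being for glutamate, glycine and leucine. In GENCODE M21, 14 of the 16 are intergenic, n-TDgtc2 lies in an intron of Aqr and n-TDgtc12 overlaps an exon of the noncoding gene Gm11280. The table does not link its 2 entries to these genes. Mitochondria use an aspartate tRNA of their own with the same anticodon, encoded by mt-Td at chrM:6942-7011 on the plus strand of GRCm38. It is shown because it is the comparison for the cytosolic pair, with the anticodon at bases 32 to 34 in capitals.

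mt-tRNA-Asp-GTC-1: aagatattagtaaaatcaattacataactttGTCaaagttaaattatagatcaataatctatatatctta

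Over all libraries, tRNA-Asp-GTC-1 held 1923588 reads, tRNA-Asp-GTC-2 held 240554 and mt-tRNA-Asp-GTC-1 held 167423. The sources used here do not say how reads that fit several near-identical tRNA copies were divided, so a level of 1 of the 2 entries is less certain than their sum. Read lengths are not given either, so whether an entry holds full-length tRNA, fragments or both is not known. In samples of whole tissue, fewer cells of a type and less RNA per cell cannot be told apart.

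Depth ran from 827 to 1467880 reads per library with a median of 59904, and the aspartate reads of a library from 41 to 159363. The shallowest libraries were high-fat liver replicate 3 with 827 reads and, in low-protein caput, replicate 2 with 2353 and replicate 3 with 912. High-fat liver replicate 4 stood apart, with cytosolic tRNAs at 4.57% of its reads against 21.8% to 26.2% in the other 3 of its group. Low-protein heart split, with cytosolic tRNAs at 5.34% and 7.30% in replicates 1 and 2 and at 36.5% to 52.1% in replicates 3 to 5. Entries for piRNA precursors, which mark germ cells, had a median of 0.393% of reads in testis and 0.43% in sperm, but also 0.325% in cauda, against 0.00112% in heart, 0.0163% in liver and 0.014% in caput. Mitochondrial tRNAs had medians of 76.4% in heart and 47.7% in liver. No entry for the liver, heart or germ cell microRNAs of the marker list was in the table, so cell types were not checked further.

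Among tissues, tRNA-Asp-GTC-1 was most abundant in caput, at 192141 ± 62098 RPM (reads in 1000000 reads of the kept features; SD, n = 19). Cauda followed at 130568 ± 37829 (SD, n = 18), testis at 111635 ± 48258 (SD, n = 19), liver at 95448 ± 57477 (SD, n = 17) and heart at 83586 ± 80910 (SD, n = 19). Cauda sperm was lowest at 21868 ± 22191 (SD, n = 19). The ranges of neighbours in this order overlapped, and the sperm mean lay more than 1 SD below the means of testis, caput and cauda.

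**Figure D1:**
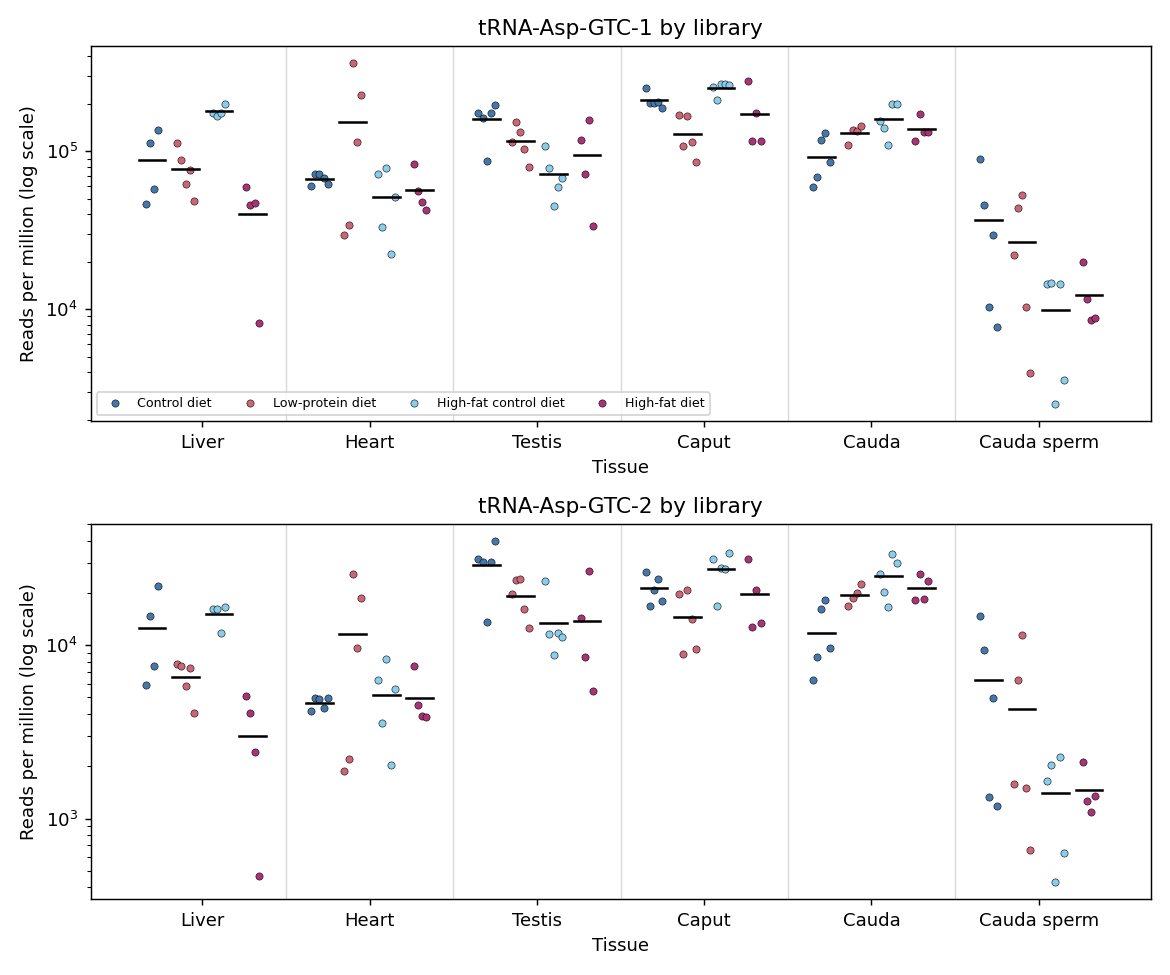
RPM, on a log scale, of tRNA-Asp-GTC-1 (upper) and tRNA-Asp-GTC-2 (lower) in each of 111 libraries, by tissue and diet. Points are libraries and bars are group means. Both tRNAs are lowest in cauda sperm, and the libraries of low-protein heart are spread from 29452 to 362911 RPM of tRNA-Asp-GTC-1 and those of low-protein sperm from 3927 to 53192 RPM.

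For tRNA-Asp-GTC-2 caput was again highest and sperm lowest, with 20826 ± 7507 RPM in caput and 3473 ± 4101 in sperm (SD, n = 19 each). Cauda at 19370 ± 6991 and testis at 19162 ± 9585 RPM lay between and close to caput. Liver at 9148 ± 6004 and heart at 6698 ± 5984 RPM were lower than these 3 tissues, though their ranges overlapped.

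The members had been picked as the leading cytosolic tRNA of the reproductive tract, so ranks are a description only. tRNA-Asp-GTC-1 held more reads than any other cytosolic tRNA in 18 of 18 cauda libraries, 15 of 19 caput libraries and 14 of 19 testis libraries, and also in 14 of 17 liver and 14 of 19 heart libraries. In sperm it led in 3 of 19 libraries, while tRNA-Lys-CTT-3 led in 10, the selenocysteine tRNA tRNA-SeC-TCA-1 in 5 and tRNA-Val-CAC-2 in 1. The description as the top cytosolic tRNA therefore did not hold for sperm. Elsewhere a glutamate tRNA led wherever aspartate did not: tRNA-Glu-TTC-2 in 4 caput libraries, tRNA-Glu-CTC-1 in 5 testis, 4 heart and 2 liver libraries, and tRNA-Glu-TTC-1 in 1 heart and 1 liver library.

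Levels were compared between tissues with edgeR over all libraries, with a term for diet. Both members were lower in sperm than in cauda, by log2 fold changes of -2.77 ± 0.30 (SE; adjusted p = 1.58e-13) for tRNA-Asp-GTC-1 and -2.75 ± 0.33 (adjusted p = 7.58e-12) for tRNA-Asp-GTC-2. In that contrast 42.9% of 294 tested features passed an adjusted p of 0.05 and an absolute log2 change of 1, with a median of 0.08 over all features. Sperm was also below testis, by -1.78 ± 0.29 (adjusted p = 1.68e-08) and -1.96 ± 0.32 (adjusted p = 1.61e-08), where 75.2% of features passed and the median feature lay at -0.54. RLE factors moved the median feature of the cauda contrast to 0.94, and the members then stood at -2.14 and -2.17. With library totals, RLE factors and cytosolic tRNAs alone, all 4 values remained past both limits.

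From testis to caput, tRNA-Asp-GTC-1 was higher by 1.4 ± 0.29 (SE; adjusted p = 9.11e-06) and passed, as did 64.3% of features, of which most were lower in caput. tRNA-Asp-GTC-2 differed by 0.76 ± 0.31 (adjusted p = 0.0232), short of the fold limit. With library totals alone the tRNA-Asp-GTC-1 value was 0.78, and with RLE factors 0.71, also short of that limit. Between caput and cauda neither member passed, at -0.42 ± 0.29 (adjusted p = 0.186) and 0.03 ± 0.31 (adjusted p = 0.95), beside 64.6% of features. The heart minus liver contrast turned on the scaling: it was 1.33 ± 0.30 (adjusted p = 0.000105) and 1.15 ± 0.32 (adjusted p = 0.00205), with 33.3% of features passing, but -0.21 and -0.41 with library totals, and the mean RPM of both members was lower in heart than in liver.

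The ratio between the 2 members does not depend on how libraries are scaled. tRNA-Asp-GTC-2 made up 14.4% ± 1.86 of cytosolic aspartate reads in testis (SD, n = 19), 12.9% ± 2.66 in sperm (n = 19), 12.6% ± 1.4 in cauda (n = 18), 9.75% ± 1.21 in caput (n = 19), 8.54% ± 2.36 in liver (n = 17) and 7.58% ± 1.24 in heart (n = 19). With the control diet alone the means were 15.2% in testis, 14% in sperm, 12.1% in liver, 11% in cauda, 9.14% in caput and 6.53% in heart. Caput stayed below testis, sperm and cauda there, while liver stood above cauda and caput. The share was 4.69 percentage points lower in caput than in testis and 2.89 points higher in cauda than in caput (permutation tests with 100000 resamples, two-sided, adjusted over 5 contrasts, p = 2.5e-05 for each, from the smallest raw p these resamples can give). Sperm and cauda differed by 0.209 points (adjusted p = 0.771), sperm and testis by -1.59 points (adjusted p = 0.0638) and heart and liver by -0.960 points (adjusted p = 0.164). With control-diet libraries alone, however, heart lay 5.55 points below liver (adjusted p = 0.0198) and sperm 3.03 points above cauda (adjusted p = 0.0397).

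**Figure D2:**
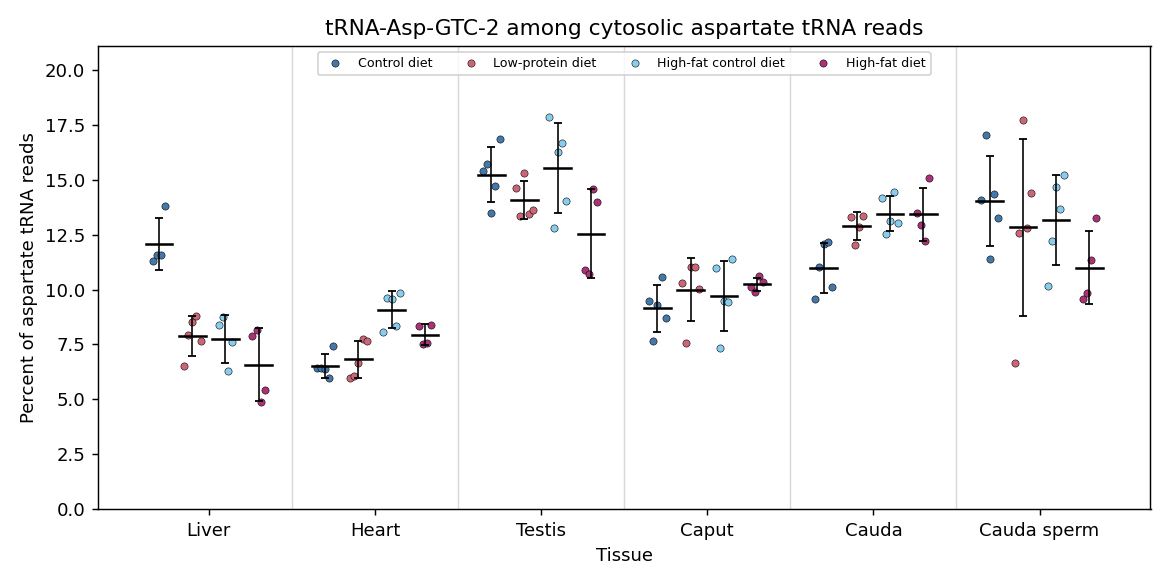
Percent of cytosolic aspartate tRNA reads that belong to tRNA-Asp-GTC-2, by tissue and diet. Points are libraries, bars are group means and whiskers are 1 SD. Testis, cauda and sperm means lie between 11% and 15.5%, caput means between 9.14% and 10.2%, and control-diet liver at 12.1% is above the other 3 liver groups.

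Diet was tested within each tissue, in a fit over all small RNA features. Of 12 member tests per diet contrast, 1 passed an adjusted p of 0.05 for low protein and 0 for high fat, beside 21.9% and 0.696% of 1437 feature tests over the 6 tissues. At an unadjusted p under 0.05 there were 4 and 0 (30.1% and 10.6% of feature tests), and DESeq2 called 4 and 0 (23.7% and 1.53%). In a second fit that held only cytosolic tRNAs, so that a change is relative to the other cytosolic tRNAs, 8 of 12 passed for low protein, beside 26% of 404 tests, and 0 of 12 for high fat, beside 2.72%. For high fat 3 of 12 had an unadjusted p under 0.05, beside 17.3%. By adjusted p in edgeR the members' count for low protein was thus below the general rate in the first fit and above it in the second. With DESeq2 the count over all features, 4 of 12 beside 23.7%, was above the general rate, so the first verdict depended on the method. The 2 fits answer different questions, since cytosolic tRNAs as a class also moved against mitochondrial tRNAs and other small RNA.

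**Figure D3:**
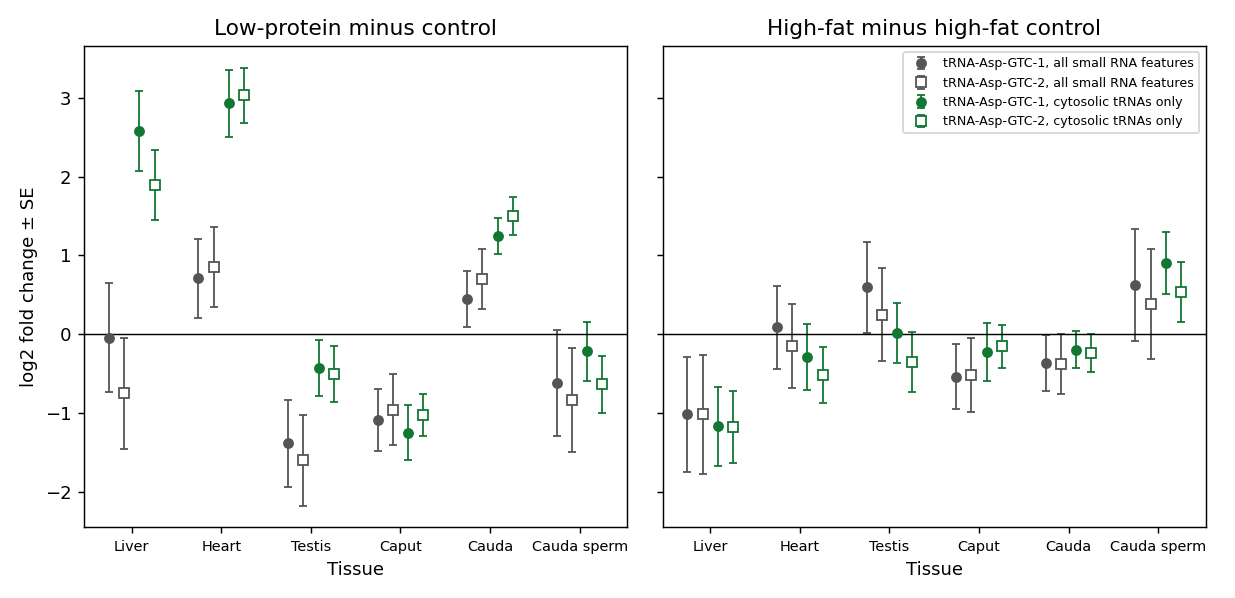
Log2 fold change ± SE of each member in each tissue, for low protein minus control (left) and high fat minus high-fat control (right), from the fit over all small RNA features (grey) and the fit over cytosolic tRNAs only (green). Filled circles are tRNA-Asp-GTC-1 and open squares tRNA-Asp-GTC-2. With low protein the green points are above 0 in liver, heart and cauda and below 0 in caput.

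In caput, aspartate tRNAs were lower with low protein. tRNA-Asp-GTC-1 stood at 253541, 201588, 202315, 204564 and 189321 RPM in the 5 control libraries and at 171203, 108797, 167763, 113991 and 85795 RPM in the 5 low-protein libraries. Every low-protein library lay below every control library. The log2 fold change was -1.09 ± 0.39 (SE; adjusted p = 0.0218), 1 of 2 members called beside 41.4% of 145 features, of which 26.9% were lower and 14.5% higher. tRNA-Asp-GTC-2 ran from 16756 to 26524 RPM in control and from 8925 to 20833 RPM in low-protein libraries, which overlapped, and its change of -0.96 ± 0.45 did not pass (adjusted p = 0.0798).

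The tRNA-Asp-GTC-1 call was not stable in this fit. It was -0.92 (adjusted p = 0.115) without libraries under 5000 reads, -0.71 (adjusted p = 0.0625) with library totals, and -0.27 (adjusted p = 0.585) without control replicate 1, the highest library. Leaving out control replicate 3 or 5 or low-protein replicate 4 also ended it, with values of -0.83, -0.83 and -0.80. The median feature stood at -0.44 in this contrast. Low-protein libraries here held 912 to 16203 reads and control libraries 13726 to 85848, so depth moved with diet, and its part in the result was not tested beyond leaving out the shallow libraries.

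Relative to other cytosolic tRNAs the caput decrease was found in both members, at -1.25 ± 0.35 (SE; adjusted p = 0.00535) and -1.03 ± 0.27 (adjusted p = 0.00354), in a fit where 34.2% of 38 cytosolic tRNAs were called. Without the shallow libraries the values were -1.29 (adjusted p = 0.0239) and -1.05 (adjusted p = 0.00966). Aspartate tRNAs were 65.8%, 57.2%, 66.7%, 41.2% and 63.4% of cytosolic tRNA reads in control caput, and 27.8%, 22.8%, 25%, 30.9% and 15.4% with low protein. The groups did not overlap. The mean share differed by -34.5 percentage points (exact permutation test, adjusted over 12 comparisons, p = 0.0476, from the smallest raw p of 0.00794 that 5 against 5 allows). Without any 1 low-protein library the difference was between -36.1 and -32.2 points, and the adjusted p 0.0952. The glutamate tRNAs moved the other way, from 13% ± 3.05 to 51.6% ± 11.5 of cytosolic reads (SD, n = 5 each). With them left out of the denominator the aspartate difference was -16.9 points (adjusted p = 0.0686).

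**Figure D4:**
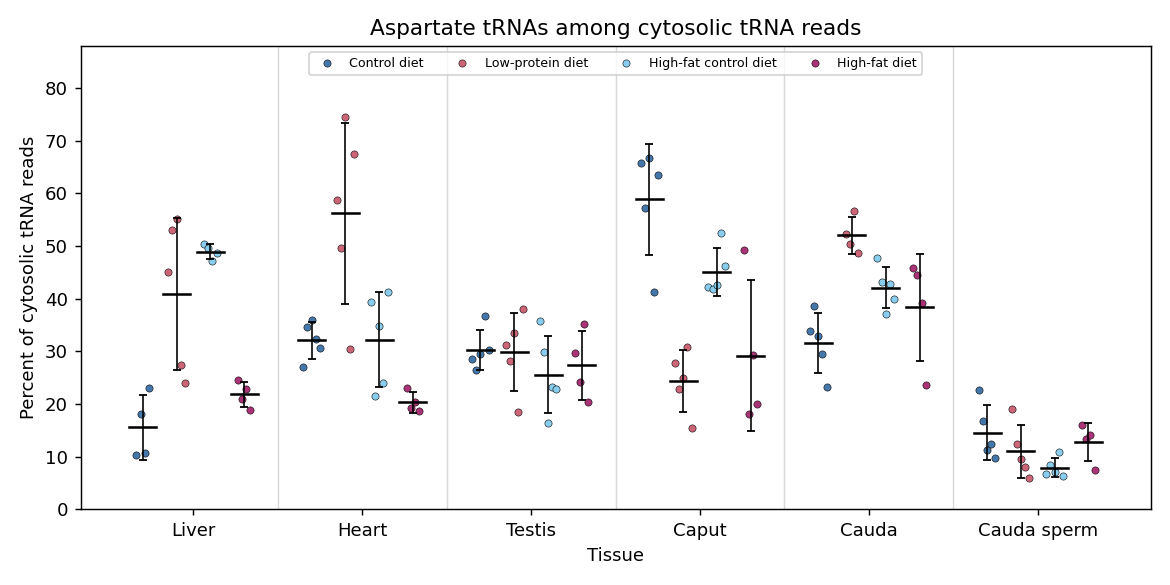
Aspartate tRNAs (both members) as a percent of cytosolic tRNA reads, by tissue and diet. Points are libraries, bars are group means and whiskers are 1 SD. The low-protein groups lie above control in liver, heart and cauda and below it in caput. The 2 control diets are far apart in liver, at 15.5% and 48.9%.

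In cauda, a later stretch of the same duct, the share went up with low protein. Aspartate tRNAs were 33.9%, 38.6%, 32.9%, 29.5% and 23.1% of cytosolic tRNA reads in control and 52.3%, 50.4%, 56.7% and 48.7% with low protein. The groups did not overlap, and the mean share differed by 20.4 percentage points (exact permutation test, adjusted p = 0.0476, raw p = 0.00794, the smallest that 4 against 5 allows). Without any 1 library the difference was 18.3 to 22.1 points and the adjusted p 0.0952. With 1 library fewer this test could not pass adjustment beside the other comparisons, whatever the difference, so that p does not bear on the call. Against the high-fat control the difference was 9.90 points (adjusted p = 0.0635). Relative to the other cytosolic tRNAs both members rose, by 1.24 ± 0.23 (SE; adjusted p = 0.000136) and 1.5 ± 0.24 (adjusted p = 2.71e-05), where 4.41% of 68 cytosolic tRNAs were called. The only other tRNA called there was tRNA-Gln-CTG-2, a glutamine tRNA, at 0.69 ± 0.20.

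Over all small RNA features in cauda no member passed in edgeR, at 0.44 ± 0.35 (adjusted p = 0.401) and 0.70 ± 0.38 (adjusted p = 0.287), beside 0% of 218 features. At an unadjusted p under 0.05 edgeR had 45 features and 0 members, and DESeq2 called 17 features and 0 members. tRNA-Asp-GTC-1 was 59576, 68942, 118748, 131316 and 85070 RPM in control and 109289, 136422, 135174 and 145244 RPM with low protein. These ranges overlapped, since 2 control libraries reached the low-protein range. The libraries of the high-fat control, at 110527 to 199269 RPM, covered most of the low-protein range, and against that diet the change of tRNA-Asp-GTC-2 was -0.02.

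In heart, the low-protein libraries had the largest SD in RPM of tRNA-Asp-GTC-1 of the 24 groups. Depth moved with diet in heart too, at 29211 to 470061 reads with low protein and 735211 to 1467880 in control. The part of depth in the heart results was not tested. tRNA-Asp-GTC-1 was 60357, 72142, 71370, 68153 and 61711 RPM in control, and 29452, 34055, 362911, 114045 and 227562 RPM with low protein. Replicates 1 and 2 were below every control library and replicates 3, 4 and 5 above every one, the same split as in their cytosolic tRNA content. In the fit over all features the changes were 0.71 ± 0.50 (SE; adjusted p = 0.188) and 0.85 ± 0.51 (adjusted p = 0.118), so 0 of 2 members passed in edgeR, none at an unadjusted p under 0.05, beside 75.2% of 242 features, 33.5% higher and 41.7% lower. DESeq2 called both, at 1.17 and 1.28, as did RLE factors and library totals, while with all entries kept the values were -0.22 and -0.091. Leaving out any 1 control library also brought both past the threshold (adjusted p from 0.00790 to 0.0239), as did leaving out low-protein replicate 4 (adjusted p = 0.000788 and 0.00329), and leaving out low-protein replicate 1 did so for tRNA-Asp-GTC-2 (adjusted p = 0.0324).

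Relative to other cytosolic tRNAs, both members were higher in low-protein heart, by 2.93 ± 0.42 (SE; adjusted p = 4.28e-11) and 3.03 ± 0.35 (adjusted p = 2.05e-16), in a fit where 71.3% of 94 cytosolic tRNAs were called, 23.4% higher and 47.9% lower, and the median stood at -0.94. The rise was not particular to aspartate: 5 of 5 glutamate tRNAs were higher in this fit, with a median of 3.36. Glutamate tRNAs went from 10% ± 1.01 to 28.7% ± 18 of cytosolic reads (SD, n = 5 each). Aspartate tRNAs were 27%, 34.5%, 35.9%, 32.3% and 30.6% of cytosolic reads in control and 58.6%, 49.6%, 74.6%, 30.5% and 67.5% with low protein. Replicates 1, 2, 3 and 5 were above every control library and replicate 4 was within their range. The mean share differed by 24.1 points (exact permutation test, raw p = 0.0397, adjusted p = 0.0952). Leaving out 1 library at a time gave 19.5 to 30.5 points. Only 1 of 10 omissions passed, that of low-protein replicate 4, at 30.5 points (adjusted p = 0.0317). Of the low-protein libraries with few cytosolic tRNAs, replicates 1 and 2 both had a share above control. Of those with many, replicates 3 and 5 did, and replicate 4, with cytosolic tRNAs at 40.6% of reads, did not. A link between this content and the share was not tested.

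In liver no change of a member with low protein passed among all small RNA, while both rose relative to other cytosolic tRNAs. tRNA-Asp-GTC-1 was 46283, 113152, 57998 and 137126 RPM in control and 112332, 87846, 62244, 76173 and 48647 RPM with low protein, all within the control range. The change was -0.04 ± 0.69 (SE; adjusted p = 0.979), and that of tRNA-Asp-GTC-2 -0.75 ± 0.71 (adjusted p = 0.451). Neither passed in edgeR or in DESeq2 or at an unadjusted p under 0.05, beside 35.6% of 205 features, 9.76% higher and 25.9% lower. Cytosolic tRNAs as a class were 63% ± 9.09 of reads in control (SD, n = 4) and 21.9% ± 7.15 with low protein (SD, n = 5), and 52 of 68 other cytosolic tRNAs fell.

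Against that class both aspartate tRNAs were higher in low-protein liver, by 2.58 ± 0.51 (SE; adjusted p = 0.000275) and 1.89 ± 0.44 (adjusted p = 0.00139), with 43.1% of 51 cytosolic tRNAs called, 17.6% higher and 25.5% lower. They were 10.3%, 18.1%, 10.7% and 23.1% of cytosolic reads in control and 45%, 53%, 55.2%, 27.3% and 24% with low protein. The groups did not overlap, although low-protein replicates 4 and 5 came close to control replicate 4. The difference of 25.4 points had an exact permutation p of 0.0317 and an adjusted p of 0.0952. The ratio of the pair also differed: tRNA-Asp-GTC-2 was 11.3%, 11.6%, 11.6% and 13.8% of aspartate reads in control and 6.52%, 7.91%, 8.51%, 8.82% and 7.68% with low protein. Every low-protein library was below every control library (difference -4.19 points, exact permutation p = 0.00794, adjusted p = 0.0952).

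The control diets did not give the same starting point in liver. Aspartate tRNAs were 15.5% ± 6.18 of cytosolic reads with the control diet and 48.9% ± 1.42 with the high-fat control (SD, n = 4 each). Depth differed as well, at 77047 to 809087 and 6279 to 22145 reads, and its part was not tested. Against the high-fat control the low-protein difference was -8.02 points (adjusted p = 0.442) instead of 25.4, and the tRNA-Asp-GTC-2 share differed by 0.125 points (adjusted p = 0.866). The liver groups hold separate stretches of a running number in the column names, whose meaning is not given, so that number and diet cannot be told apart there. The same holds for all 4 diets in testis, caput, cauda and sperm, and for control and low protein in heart, where the columns of the high-fat groups carry no such number.

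Testis showed the largest low-protein decrease by size in the fit over all features without passing the adjusted threshold. tRNA-Asp-GTC-1 was 173759, 162888, 86871, 175630 and 197402 RPM in control and 115034, 153693, 132723, 103654 and 79780 RPM with low protein. The 4 highest libraries were all controls, and control replicate 3 lay within the low-protein range. Changes were -1.39 ± 0.56 (SE) and -1.60 ± 0.57, with an adjusted p of 0.522 for each, so that both had an unadjusted p under 0.05 in edgeR, as had 39 features, while 0% of 447 features and none by DESeq2 passed adjustment. Of cytosolic tRNA reads, aspartate tRNAs were 30.3% ± 3.85 in control and 29.8% ± 7.32 with low protein (SD, n = 5 each), a difference of -0.431 points (exact permutation test, adjusted p = 0.913). Relative to other cytosolic tRNAs the changes were -0.43 ± 0.36 (adjusted p = 0.632) and -0.50 ± 0.35 (adjusted p = 0.618), beside 0% of 99 cytosolic tRNAs. Against the high-fat control, whose tRNA-Asp-GTC-1 libraries ran from 45076 to 107791 RPM, both values changed sign, to 1.28 and 1.08. The 2 control diets of testis differed in depth, at 117899 to 671134 reads in control and 19530 to 43306 in the high-fat control. The part of depth in this change of sign was not tested.

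In sperm the spread between libraries was wide on both diets. tRNA-Asp-GTC-1 was 90050, 45605, 10348, 29715 and 7759 RPM in control and 22047, 44021, 53192, 10275 and 3927 RPM with low protein. The groups overlapped over most of their range. The changes of -0.62 ± 0.67 (SE; adjusted p = 0.987) and -0.84 ± 0.66 (adjusted p = 0.987) did not pass, beside 0% of 180 features in edgeR, with 0 features at an unadjusted p under 0.05 and 0 called by DESeq2. The aspartate share of cytosolic reads was 14.6% ± 5.20 and 11% ± 5.06 (SD, n = 5 each; exact permutation test, adjusted p = 0.381). These libraries held 139 to 3969 aspartate reads each.

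High fat gave no member call in any tissue or in either fit. The largest difference in means was in liver, where tRNA-Asp-GTC-1 was 175615, 167721, 175983 and 200956 RPM with the high-fat control and 59310, 45921, 47158 and 8147 RPM with high fat. The groups were far apart and did not overlap. The change was -1.02 ± 0.73 (SE; adjusted p = 0.343), and -1.02 ± 0.76 (adjusted p = 0.347) for tRNA-Asp-GTC-2, while the median feature stood at 1.06 and 2.93% of 205 features were called, 2.44% higher and 0.488% lower. Aspartate tRNAs were 50.3%, 49.6%, 47% and 48.7% of cytosolic reads with the high-fat control and 24.6%, 21%, 22.8% and 18.9% with high fat, again with no overlap. That difference of -27.1 points had an exact permutation p of 0.0286, the smallest that 4 against 4 allows, and an adjusted p of 0.0952. Against the control diet, at 15.5%, the high-fat share was 6.27 points higher (adjusted p = 0.286).

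Elsewhere high fat and its control overlapped. In caput the aspartate share was 42.2%, 41.8%, 42.6%, 52.4% and 46.2% with the high-fat control and 49.3%, 18.0%, 29.4% and 20.0% with high fat, so that 3 of 4 high-fat libraries were below every control library and replicate 1 was not (exact permutation test, adjusted p = 0.0952). tRNA-Asp-GTC-1 changed there by -0.54 ± 0.41 (SE; adjusted p = 0.431), beside 0.69% of 145 features. In heart the share was 32.2% ± 9.02 with the control (SD, n = 5) and 20.3% ± 1.97 with high fat (SD, n = 4; adjusted p = 0.0952), with changes of 0.09 ± 0.53 and -0.15 ± 0.53 (adjusted p = 0.991 each) beside 1.24% of 242 features, 0.826% higher and 0.413% lower. Among cytosolic tRNAs alone 6.38% of 94 were called in that contrast, all higher, and neither member was.

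In the remaining 3 tissues the ranges of high fat and its control overlapped, as in testis, where tRNA-Asp-GTC-1 ran from 33456 to 157931 RPM with high fat and from 45076 to 107791 RPM with the control. tRNA-Asp-GTC-1 changed by 0.59 ± 0.58 (SE; adjusted p = 0.771) in testis, by -0.37 ± 0.36 (adjusted p = 0.855) in cauda and by 0.63 ± 0.71 (adjusted p = 0.927) in sperm, and tRNA-Asp-GTC-2 by 0.25 ± 0.59, -0.37 ± 0.38 and 0.39 ± 0.70. edgeR called 0% of features in each of these. At an unadjusted p under 0.05 it had 19 features in testis, 18 in cauda and 6 in sperm, and DESeq2 called 2, 0 and 0. Against the control diet in place of the high-fat control, the testis changes were of opposite sign and passed, at -2.07 (adjusted p = 0.0180) and -2.43 (adjusted p = 0.0104). Testis libraries held 10120 to 119046 reads with high fat and 117899 to 671134 with the control diet. The part of depth in these calls was not tested. The sperm share of aspartate tRNAs was 7.89% ± 1.85 with the high-fat control (SD, n = 5) and 12.7% ± 3.68 with high fat (SD, n = 4; exact permutation p = 0.0556, adjusted p = 0.0952).

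A tissue by diet term tested if the members' response varied over the 6 tissues. For low protein the adjusted p was 0.299 for tRNA-Asp-GTC-1 and 0.130 for tRNA-Asp-GTC-2, beside 35.9% of 410 features called. Among cytosolic tRNAs alone it was 1.23e-11 and 1.85e-10, without libraries under 5000 reads 0.00580 and 0.00912, and with RLE factors 0.000175 and 0.000344. The tissue difference thus passed in 3 of the 4 other settings, library totals being the exception. For high fat the adjusted p was 1 for both, beside 3.17% of 379 features, and 0.000434 and 0.0181 among cytosolic tRNAs alone.

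Diet was also compared on the proportion of the 2 members. Of 12 diet comparisons of the tRNA-Asp-GTC-2 share, 0 passed adjustment (exact permutation tests), and 2 had an unadjusted p under 0.05: liver with low protein, given above, and cauda with low protein. In cauda the share was 9.57%, 11%, 12.1%, 12.2% and 10.1% in control and 13.3%, 12.0%, 12.9% and 13.4% with low protein. Low-protein replicate 2 lay below the highest control libraries and the other 3 above them (difference 1.91 points, exact permutation p = 0.0476, adjusted p = 0.238). The direction was opposite to that in liver. The precision of these shares is limited in shallow libraries, where the 95% Wilson interval reached 7.40 points to either side in high-fat liver, 5.84 in low-protein sperm and 4.71 in low-protein caput, against 0.218 in control heart. Intervals cover counting error only.

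Other tRNAs with the same modifications gave a mixed picture beside the aspartate pair. Queuosine is also placed in the tRNAs for asparagine, histidine and tyrosine, and DNMT2 also methylates tRNA-Gly-GCC and tRNA-Val-AAC. In low-protein heart, 3 of 3 tested queuosine tRNAs fell (median -4.55; largest tRNA-Asn-GTT-3, -6.15 ± 0.63, adjusted p = 3.86e-20), as did 5 of 8 DNMT2 tRNAs (largest tRNA-Val-AAC-1, -4.97 ± 0.59). Other cytosolic tRNAs fell as a class, 77 of 91 with a median of -3.19. The DNMT2 count was below that of the class, while all 3 queuosine tRNAs fell, with a lower median than the class. Over all 242 features 41.7% fell and the median was -0.29, and the aspartate members stood at 0.71 and 0.85. In low-protein liver, 2 of 2 queuosine tRNAs fell (largest tRNA-Asn-GTT-3, -5.07 ± 0.85) and 3 of 5 DNMT2 tRNAs (largest tRNA-Val-AAC-5, -2.83 ± 0.66), beside 52 of 68 other cytosolic tRNAs (median -2.50) and 25.9% of all features (median 0.13).

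Within the fit over cytosolic tRNAs, tRNA-Asn-GTT-3 still fell in both tissues, with log2 changes of -3.81 ± 0.40 in heart and -2.57 ± 0.53 in liver, while both aspartate members rose. Of the queuosine tRNAs, 3 of 3 were lower there in heart (median -2.55), beside 47.9% of all cytosolic tRNAs. In liver 1 of 2 was lower (median -1.30), beside 25.5%. DNMT2 tRNAs there were 3 higher and 3 lower of 8 in heart, beside 23.4% higher and 47.9% lower of all cytosolic tRNAs. In liver 2 of 5 were higher, beside 17.6%, led by tRNA-Gly-GCC-1 at 2.43 ± 0.60 (adjusted p = 0.00204). In heart the largest change of that list was that of tRNA-Val-AAC-1, -2.67 ± 0.31. Neither list had a called member with low protein in caput or cauda, where the queuosine tRNAs had medians of -0.30 and -1.23 and the DNMT2 tRNAs of -0.29 and -0.90 in the fit over all features.

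Glutamate tRNAs, which serve the other acidic amino acid, rose in low-protein caput in 3 of 3 tested entries (median 2.13; tRNA-Glu-TTC-2, 2.56 ± 0.46, adjusted p = 2.11e-05), beside 14.5% of features higher, the opposite direction to tRNA-Asp-GTC-1. In low-protein heart 3 of 5 rose, led by tRNA-Glu-TTC-2 at 2.06 ± 0.52, beside 33.5% of features. Among cytosolic tRNAs alone 5 of 5 rose there, led by tRNA-Glu-TTC-2 at 4.37 ± 0.41, beside 23.4%. In low-protein liver 1 of 4 fell, tRNA-Glu-TTC-3 at -2.41 ± 0.80, which is the general rate of 25.9% there. With high fat tRNA-Glu-TTC-2 rose in caput by 1.79 ± 0.47 (adjusted p = 0.0414), the only feature called in that contrast.

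The mitochondrial aspartate tRNA was called with low protein in heart and caput. In low-protein heart mt-tRNA-Asp-GTC-1 fell by 2.71 ± 0.54 on the log2 scale (SE; adjusted p = 1.29e-06), with 11120 to 18544 RPM in control and 214 to 5036 RPM with low protein and no overlap. In that contrast 75.2% of 242 features were called, 41.7% lower, so a call there was common. In low-protein caput mt-tRNA-Asp-GTC-1 fell by 3.38 ± 0.61 (adjusted p = 4.15e-05), from 15299 to 28838 RPM to between 0 and 3730 RPM, again with no overlap. Of 145 features there 41.4% were called, 26.9% lower. In caput the mitochondrial and cytosolic aspartate tRNAs were thus both lower, and in heart the mitochondrial tRNA was lower while the cytosolic pair stood at values above 0 that did not pass. Mitochondrial tRNAs as a class were 46.2% ± 6.96 of reads in control caput and 23.5% ± 8.64 with low protein (SD, n = 5 each), and in heart 76.6% ± 1.21 and 62.6% with an SD of 22. The part of that class change in the fall of mt-tRNA-Asp-GTC-1 was not tested. Low-protein liver went the other way for mt-tRNA-Asp-GTC-1, at 1.58, as did cauda, at 1.91, both without a call.

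Over the 24 group means the 2 members had a Pearson r of 0.94 with each other on log2(RPM + 1). As a description across groups that share libraries and depth, the 5 other cytosolic tRNAs most like tRNA-Asp-GTC-1, of 72 candidates with a median r of 0.02, were tRNA-Arg-TCT-3 (r = 0.75), tRNA-Gly-GCC-2 (0.71), tRNA-Glu-CTC-1 (0.70), tRNA-Arg-TCT-1 (0.68) and tRNA-Gly-GCC-4 (0.64). For tRNA-Asp-GTC-2 they were tRNA-Arg-TCT-3 (0.75), tRNA-Arg-TCT-1 (0.75), tRNA-Gln-CTG-2 (0.73), tRNA-Gly-GCC-4 (0.73) and tRNA-Gly-GCC-2 (0.71), beside a median of 0.25. The lists share 4 tRNAs, and none comes near the correlation of the pair with each other.

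The table also had 9 entries for single copies of tRNA-Asp-GTC-1 and antisense entries for both members. The single-copy entries held 1262 reads in all, from 67 for tRNA-Asp-GTC-1-2 to 380 for tRNA-Asp-GTC-1-11, and 3 of them listed nearly the same reads. The 8 of them that were kept were rare beside the main entries in every tissue, from 128 reads beside 537993 aspartate reads in testis to 28 beside 15346 in sperm. The antisense entries held 7 and 3 reads, at most 1 in any library, against 1923588 and 240554 sense reads. Aspartate reads thus lay nearly all in the 2 main entries and on 1 strand.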

How the data were processed

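The deposited table holds whole-number read counts per small RNA entry, not normalized, with 1 column per library. Per the submitters' processing notes the authors used cutadapt, DESeq2 and the mouse build mm10. The sources used here do not give the aligner, the counting rule, the handling of multiply mapped reads or the meaning of a code in the column names. Libraries were assigned to groups by title. Groups of 4 or 5 libraries were compared, low protein with control and high fat with high-fat control.

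Entries that list the same reads were reduced to 1 where their counts, compared library by library, differed in sum by under 5% (entries with at least 50 reads), second names of mitochondrial tRNAs and repeated 5S entries were dropped, and 1042 of 1268 features with 51.1% of the listed counts were kept. RPM is scaled to 1000000 of these reads, which ran from 827 to 1467880 per library. Of 204 pairs of replicates none differed by as little as sampling noise (smallest chi-square per degree of freedom 1.54).

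Counts were tested with edgeR 4.0.16 (TMM, filterByExpr, robust quasi-likelihood F test, R 4.3.3) with Benjamini-Hochberg adjustment over all features of a contrast, called at 0.05 and, between tissues, at an absolute log2 change of 1 or more. The SE of a log2 change was computed from its F statistic. Shares within a library were tested by permutation of libraries with purpose-written code, two-sided. SciPy gave the Wilson intervals. The scripts were tested on simulated data. Alternatives were DESeq2 1.42.0, other scalings and filters, all entries, cytosolic tRNAs only, the other control diet, a replicate block, and leaving out replicates or libraries under 5000 reads. Deviations of libraries with equal replicate numbers all correlated over 0.1 for high fat in caput (0.131 to 0.284) and cauda (0.118 to 0.452) and in no other diet comparison. In caput 7 of 8 libraries correlated best with the library of their own number. In cauda this was 2 of 8, fewer than the 5 of 8 in each liver comparison, so a link by number in cauda is not shown.

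The members, the lists and the tests were chosen with earlier results of these data known. Named besides the members are the other aspartate entries, the mitochondrial aspartate tRNA, the tRNA with the most reads where aspartate did not lead, the 5 cytosolic tRNAs most correlated with each member over 24 group means, and the called tRNA of each list with the largest absolute change. tRNA-Gln-CTG-2 was named in cauda because it was the only other call.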

Additional observations from a re-analysis of the deposited data

Results flagged for a closer look

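In the groups of 4 or 5 libraries, 1 library stood apart from its group in 5 of 96 checks, and chance alone flags about 1 in 20. tRNA-Asp-GTC-1 was 253541 RPM in caput control replicate 1, against 189321 to 204564 in the other 4. It was 212025 RPM in caput high-fat control replicate 2, against 255983 to 266667. tRNA-Asp-GTC-2 was 11785 RPM in liver high-fat control replicate 3, against 16076 to 16570, and 23461 RPM in testis high-fat control replicate 1, against 8746 to 11828. The tRNA-Asp-GTC-2 share of aspartate reads was 13.8% in liver control replicate 4, against 11.3% to 11.6%.

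The low-protein effect differed among tissues in 3 settings by the test of the difference itself (edgeR, tissue by diet term). For tRNA-Asp-GTC-1 the adjusted p was 0.000175 with RLE factors, 1.23e-11 among cytosolic tRNAs alone and 0.00580 without libraries under 5000 reads. For tRNA-Asp-GTC-2 it was 0.000344, 1.85e-10 and 0.00912. For high fat it passed among cytosolic tRNAs alone, with 0.000434 for tRNA-Asp-GTC-1 and 0.0181 for tRNA-Asp-GTC-2. With TMM factors over all features none of the 4 tests passed, with adjusted p from 0.130 to 1.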

How the results depend on the processing

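Of 430 values of the 24 diet changes under other settings, 350 kept their direction and their side of the threshold, as did 61 of 80 for the 10 tissue changes, 136 of 147 for the tRNA-Asp-GTC-2 share by diet, 122 of 159 for the aspartate share by diet, 12 of 15 for tissue shares and 8 of 16 for tissue by diet terms. The members are written GTC-1 and GTC-2 here, values are log2 changes or, for shares, percentage points, and the causes were not tested. Depth limits sperm, low-protein caput and high-fat liver most.

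The choice of control diet mattered most. Against the other control diet the low-protein sign changed in testis (GTC-1 1.28, GTC-2 1.08, aspartate share 4.26), sperm (1.23, 1.27, aspartate share 3.09), cauda (GTC-2 -0.023, GTC-2 share -0.564), liver (GTC-2 share 0.125, aspartate share -8.02) and heart (GTC-2 share -2.27). The high-fat sign changed in testis (GTC-1 -2.07 and GTC-2 -2.43, both past the threshold, aspartate share -2.97), sperm (-1.22, -1.72, aspartate share -1.82), cauda (0.010, 0.35, GTC-2 share 2.44, aspartate share 6.69), heart (GTC-1 -0.37, GTC-2 share 1.42), caput (GTC-2 0.10) and liver (aspartate share 6.27). With that reference, low-protein heart GTC-1 (1.16), caput GTC-2 (-1.57) and the high-fat heart aspartate share (-11.8) passed, and the low-protein cauda aspartate share (9.90) did not.

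Among cytosolic tRNAs alone the low-protein changes in liver turned to 2.58 and 1.89 (2.45 and 1.76 without libraries under 5000 reads), and the high-fat changes to -0.29 for heart GTC-1 and -0.35 for testis GTC-2. Low-protein heart (2.93, 3.03), cauda (1.24, 1.5) and caput GTC-2 (-1.03, and -1.05 without libraries under 5000 reads) then passed, as did tissue by diet terms for low protein (adjusted p = 1.23e-11 and 1.85e-10) and high fat (0.000434 and 0.0181). Heart minus liver (0.98, 0.80) then fell short of the fold limit.

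With library totals, low-protein heart (1.20, 1.32) passed, caput GTC-1 (-0.71) and caput minus testis GTC-1 (0.78) did not, and heart minus liver (-0.21, -0.41) and cauda minus caput GTC-2 (-0.048) changed sign. With RLE factors, low-protein heart (1.17, 1.28), caput GTC-2 (-0.82) and the low-protein tissue by diet terms (adjusted p = 0.000175 and 0.000344) passed, heart minus liver (0.59, 0.45) and caput minus testis GTC-1 (0.71) did not, and high-fat heart GTC-1 turned to -0.019. DESeq2 gave 1.17 and 1.28, -0.82, 0.59 and 0.44, 0.71 and -0.019 for the same changes, with the same verdicts.

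With all entries kept, low-protein heart (-0.22, -0.091), high-fat heart GTC-1 (-0.13) and high-fat cauda (0.067, 0.12) changed sign, and low-protein caput GTC-2 (-1.12) passed. Without a filter, low-protein caput GTC-1 (-1.34) and heart minus liver GTC-2 (0.99) did not pass. Without libraries under 5000 reads, low-protein caput GTC-1 (-0.92) and the caput aspartate share (-34.2) did not pass, though with so few caput libraries left the share test could not pass adjustment. The low-protein cauda share (20.4) did not pass either. No cauda library was that shallow (lowest 12169 reads), so its data were the same and only the adjustment over the comparisons moved. Tissue by diet terms passed (adjusted p = 0.00580 and 0.00912), and cauda minus caput GTC-2 was -0.055. With the control diet alone, heart minus liver (1.10, 0.049) and caput minus testis GTC-1 (0.72) did not pass, caput minus testis GTC-2 (-0.13) and cauda minus caput GTC-2 (-0.57) changed sign, and the GTC-2 share passed for heart minus liver (-5.55) and sperm minus cauda (3.03). With glutamate tRNAs out of the denominator, the low-protein aspartate share passed in liver (33.5) and heart (42.1) and not in caput (-16.9), and the high-fat testis share was -1.16. Summed counts per group gave -14.0 for the high-fat cauda aspartate share and -3.78 for the heart minus liver GTC-2 share.

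With the replicate number as a block, low-protein liver GTC-1 was 0.15 and high-fat heart GTC-2 0.094, both of changed sign, and no call of the diet or tissue changes of the members was gained or lost. Leaving out 1 library at a time, the low-protein range was -0.33 to 0.52 for liver GTC-1, 0.32 to 1.42 and 0.39 to 1.56 in heart, -1.30 to -0.27 and -1.18 to -0.11 in caput and -0.96 to 0.045 for sperm GTC-1. The high-fat range was -0.16 to 0.27 and -0.40 to 0.028 in heart, -0.39 to 0.55 for testis GTC-2 and -0.056 to 0.69 for sperm GTC-2. The low-protein aspartate share ranged from 19.5 to 30.5 in heart, -2.48 to 2.42 in testis, -38.9 to -32.2 in caput and 18.3 to 22.1 in cauda, and the high-fat one from -0.886 to 4.26 in testis and -6.30 to 1.09 in cauda. The GTC-2 share ranged from -0.0737 to 0.944 in high-fat caput, -0.579 to 0.379 in high-fat cauda and -2.42 to 0.351 in low-protein sperm.

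Scaling also moved the split of calls over all features. Of features called between heart and liver, 33.7% were higher in heart with TMM factors, 5.1% with library totals and 16.4% with RLE factors. RLE factors moved the share of higher calls from 18.0% to 7.1% for caput minus testis and from 53.2% to 86.9% for sperm minus cauda, and library totals from 38.9% to 26.4% for sperm minus testis. For high fat in liver, where TMM factors called 6 features, library totals called 2 and RLE factors 0.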
